A study of Mus musculus with 6 samples.

Results

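The mRNAs of the translation initiation factors were measured by RNA-seq in myoblasts, the progenitors of skeletal muscle fibers, from mdx mice. These mice lack dystrophin and serve as a model of Duchenne muscular dystrophy. The members were the genes of the count table whose symbol starts with Eif1 to Eif6, without the eIF2 kinases, the eIF4E-binding proteins, the Y-linked Eif2s3y and pseudogenes, which left 48 of the 47069 genes listed. All 6 libraries came from cultured mdx cells, which the sample records call satellite cells and which had been sorted as Itga7-positive and Itgb1-positive cells without Sca-1, CD45, CD31 and CD11b. The 3 libraries of the control group had received vehicle, and the 3 libraries of the other group had received 10 μM PSB-KD107, a synthetic agonist of the receptor Gpr18. The sample records give a treatment of 2 days and the methods of the study an overnight treatment, and a text field of the records calls the control cells untreated. The cells came from 3 different mice, but neither source says which library came from which mouse, and the libraries are named here by group and by the numbers 1, 2 and 4 of the count table.

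The libraries held between 30917613 and 48756794 counts, so that 3 counts corresponded to between 0.0596 and 0.0962 CPM (counts per 1000000 after TMM scaling). This limit reflects counting error alone. The 8 myoblast markers examined were all detected, with a summed level of 8640 to 9180 CPM in the vehicle libraries and 7645 to 8668 CPM in the PSB-KD107 libraries. Their log2 fold changes ranged from -0.90 to 0.73. Pax7, a transcription factor of satellite cells, and Myog, a transcription factor of differentiation, were the markers without overlap between the groups, at -0.90 (adjusted p = 0.209 by edgeR and 0.000639 by DESeq2) and -0.49 (0.469 and 0.119). Myog was at 2042 to 2203 CPM in vehicle libraries and 1175 to 1726 CPM in PSB-KD107 libraries. Pax7 was at 49.9 to 68.8 CPM and 26.8 to 35.1 CPM. How far the cells had differentiated was not tested. Myf5, Itgb1 and Des had positive values (0.73, 0.30 and 0.15) with overlapping groups. The part of these markers in the values of the initiation factors was not tested. The summed level of 4 endothelial markers was at most 1.40 CPM, that of 5 leukocyte and macrophage markers (Adgre1 at 0) at most 6.56 CPM, and that of 2 adipocyte markers (Plin1 at 0) at most 0.0199 CPM. The sum of 4 markers of fibro-adipogenic progenitors was 0.931 to 2.42 CPM in vehicle libraries and reached 9.88 CPM in PSB-KD107 library 4, where Ly6a alone had 8.36 CPM, Pdgfra 1.46 CPM, Dpt 0.0550 CPM and Dpp4 0. Libraries stood apart in 2 ways. Both libraries numbered 1 had Xist at 6.45 and 7.41 CPM, whereas the other libraries had 276 to 437 CPM. PSB-KD107 library 4 had high levels of interferon-stimulated genes, such as Isg15 (217 CPM, against 0.417 to 1.53 CPM elsewhere). In bulk samples, fewer cells of a type and less RNA per cell cannot be told apart.

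Translation of most mRNAs starts when a small ribosomal subunit, carrying the initiator tRNA and several initiation factors, is recruited to the cap of the mRNA and scans towards the start codon. The complex eIF2 brings the initiator tRNA in its GTP-bound form, eIF2B exchanges the GDP of eIF2 for GTP, eIF3 is the scaffold on the small subunit, and eIF4 binds the cap and unwinds the leader of the mRNA. Kinases that phosphorylate eIF2, and proteins that hold eIF4E under the control of mTOR, set the rate of initiation in many cells, including muscle cells. Most of this control acts on proteins, and RNA-seq measures only the mRNAs.

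Many mRNAs of the translation machinery start with a C followed by a run of pyrimidines, the 5′ terminal oligopyrimidine (TOP) sequence, and stress genes controlled by the transcription factor ATF4 can carry the element TGATGNAAN (CARE). Both were searched in RefSeq promoter windows of the build GRCm38.p6, which run from 250 bases before to 50 bases after an annotated start and were found for 38 of the 48 members (50 windows). A C followed by 4 or more pyrimidines lay exactly at the annotated start in 3 of these 50 windows (6%), against 2.51% of the 32851 windows of all genes. TGATGNAAN, searched on both strands, was found in 1 of the 50 windows (2%), that of Eif2s3x, against 3.95% of all windows. The starts of Eif3f and Eif2s3x are shown because they hold the pyrimidine run, in capitals. Those of Eif1 and Eif2s2 are shown because these genes were among the members with an unadjusted p-value under 0.05 by edgeR. The starts of Eif1a and Eif6, which had smaller p-values, are not shown. Each run is 30 bases, starts 10 bases before the annotated start and reads 5′ to 3′ on the strand of the gene. The windows are chr7:108934405-108934434 (plus strand) for Eif3f, chrX:94212632-94212661 (minus strand) for Eif2s3x, chr11:100319939-100319968 (plus strand) for Eif1 and chr2:154892887-154892916 (minus strand) for Eif2s2.
Eif3f start: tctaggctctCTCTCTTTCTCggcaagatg
Eif2s3x start: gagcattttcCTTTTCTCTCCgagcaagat
Eif1 start: ggcgtcacaggggcggctatataagtgaat
Eif2s2 start: aaggttggctttactgtacgcctgcgcttt
The match of TGATGNAAN in the window of Eif2s3x was on the strand opposite to the gene, so that its reverse complement appears in capitals in the sequence of chrX:94212729-94212758 (minus strand).
Eif2s3x, upstream: ttcgccatcaTTTTCATCAggtctatgccg
The starts of Eif1 and Eif2s2 held no such run at the RefSeq base. The RefSeq starts of Eif1, Eif2s2 and Eif2s3x lie inside the spans that the gene models of GENCODE M21 give these genes. The sequence called upstream of Eif2s3x is upstream of the RefSeq start only, within the M21 span chrX:94188707-94212862 (minus strand). Whether the M21 starts hold such a run was not tested. These matches are descriptions of the letters in these windows.

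Of the 48 members, 46 were tested among the 14165 genes that passed the filter on low counts, and Eif4e1b, an oocyte form of the cap-binding protein, and Eif2c5, which carries an older name of the Argonaute family, had no count in any library. With edgeR's quasi-likelihood test, no member had an adjusted p-value under 0.05, as was true of all genes (0%), and the smallest adjusted p-value among the members was 0.239. At an unadjusted p-value under 0.05, 4 of the 46 members (8.70%) were higher with PSB-KD107, namely Eif1a, Eif6, Eif2s2 and Eif1, against 6.47% of all genes tested. None was lower, against 2.93% of all genes. With DESeq2, Eif1a and Eif6 had an adjusted p-value under 0.05 and were higher (4.35% of the members), against 2.58% of the 13540 genes with an adjusted p-value, and no member was lower, against 0.982%. The DESeq2 calls depended on the libraries used, as did those over all genes, 3.4% of which were called in either direction with all libraries. When vehicle library 2, vehicle library 4 or PSB-KD107 library 1 was left out, 0 members passed, beside 1.26%, 1.28% and 2.05% of all genes. Only Eif1a passed without vehicle library 1, beside 4.38% of all genes.

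The members varied little. Their log2 fold changes ranged from -0.22 to 0.47 with a median of 0.018, beside a median of -0.001 over all genes tested, and 24 were above 0 and 22 below. The median absolute log2 fold change was 0.065 for the members and 0.20 for all genes. For 45 of the 46 members (97.8%) the whole 95% interval of the log2 fold change lay between -1 and 1, that is within a 2-fold change in either direction, against 60.8% of all genes. The members were also well covered, which bears on the width of these intervals: 42 of the 46 had more than 1000 counts in every library, and the lowest count of a tested member in a library was 78. In 7 members (15.2%) all PSB-KD107 libraries were above all vehicle libraries, against 9.2% of all genes, and in 1 member (2.17%), Eif3k, all were below, against 6.59%. The 7 were Eif1, Eif1a, Eif2b4, Eif2s2, Eif3d, Eif3j1 and Eif6. With 3 libraries per group an exact two-sided permutation test cannot give a p-value below 0.1, which is the value for each of these 8 members.

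**Figure D1:**
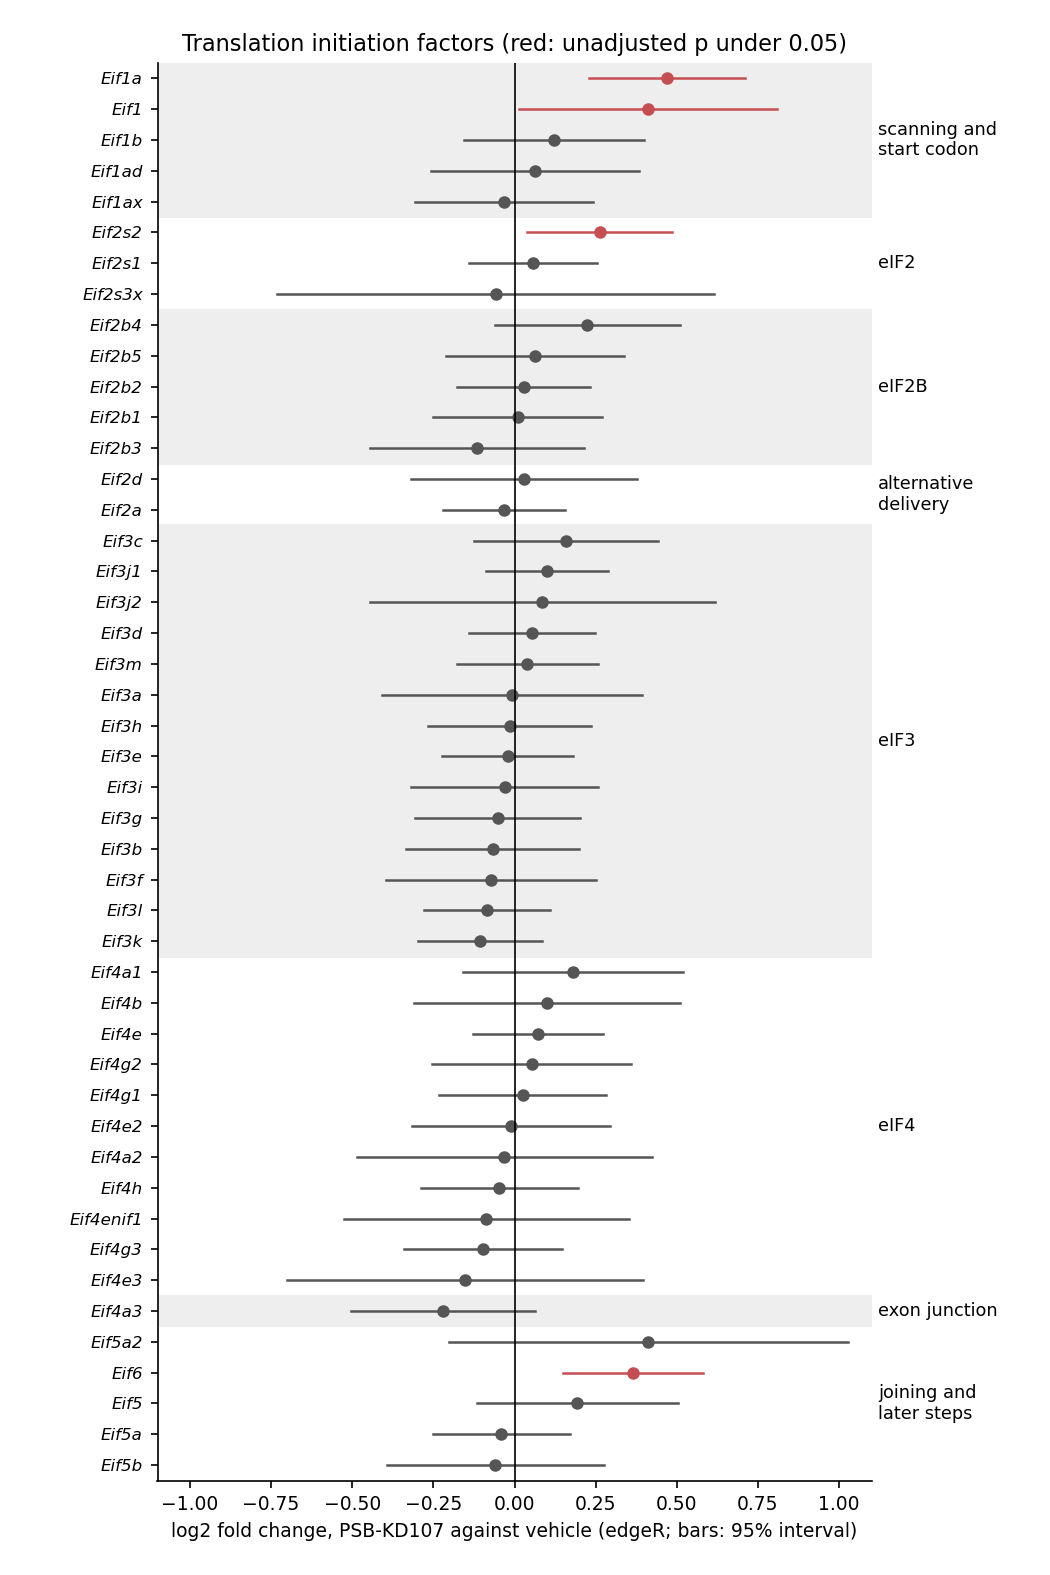
Log2 fold change of each tested initiation factor, PSB-KD107 against vehicle, from edgeR (points) with its 95% interval (bars), grouped by complex. The 4 members in red (Eif1a, Eif1, Eif2s2 and Eif6) had an unadjusted p-value under 0.05, and Eif5a2 alone had an interval that passed 1.

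The factors that take part in scanning and start codon selection held the largest difference. Eif1a encodes eIF1A, which binds the decoding site of the small subunit. Its levels were 90.4, 88.5 and 81.5 CPM in vehicle libraries 1, 2 and 4, and 130.0, 110.2 and 120.3 CPM in PSB-KD107 libraries 1, 2 and 4. The groups did not overlap, and the means were 86.8 ± 4.70 and 120.2 ± 9.88 CPM (SD, n = 3). The log2 fold change of Eif1a was 0.47 (standard error, SE, 0.10, 95% interval 0.23 to 0.71, a 1.38-fold difference), with an adjusted p-value of 0.239 by edgeR and 0.00502 by DESeq2. With any single library left out, it stayed between 0.39 and 0.52, and without both libraries numbered 1 it was 0.43. Eif1ax, the X-linked copy of the same factor, had 149, 147 and 147 CPM with vehicle and 128, 141 and 164 CPM with PSB-KD107. Its groups overlapped, and its log2 fold change was -0.032 (SE 0.11). The ratio of Eif1a to Eif1ax counts was 0.55 to 0.61 in vehicle libraries and 0.73 to 1.01 in PSB-KD107 libraries, without overlap (exact permutation test p = 0.1, the smallest possible). The coding sequences of both copies were 85.6% identical in the transcripts of GENCODE M21, and they had no run of 100 bases, the read length, in common.

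Eif1 encodes eIF1, which keeps the scanning ribosome open until the start codon is found. It lies on chr11:100319885-100322096 (mm10, plus strand). Its levels were 437, 340 and 343 CPM with vehicle and 585, 461 and 445 CPM with PSB-KD107. The lowest treated library was only slightly above the highest vehicle library, and library 1 was the highest of its group on both sides. PSB-KD107 differed from vehicle by a log2 fold change of 0.41 (SE 0.16, 95% interval 0.015 to 0.81, adjusted p = 0.516 by edgeR). It was 0.26 without PSB-KD107 library 1, with an unadjusted p-value of 0.154 by edgeR, and 0.40 without both libraries numbered 1. Eif1b, its paralog with a coding sequence 81.1% identical, had 45.8, 40.4 and 48.0 CPM with vehicle and 52.6, 44.7 and 48.6 CPM with PSB-KD107, with overlap and a log2 fold change of 0.12 (SE 0.11). There were 7.16 to 9.55 Eif1 counts per Eif1b count with vehicle and 9.16 to 11.1 with PSB-KD107. Eif1ad, which carries an eIF1A-like domain, had 41.3, 35.9 and 34.7 CPM with vehicle and 44.3, 36.8 and 35.7 CPM with PSB-KD107. Its groups overlapped at a log2 fold change of 0.063 (SE 0.13), and its exons overlap those of Banf1 on the other strand.

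**Figure D2:**
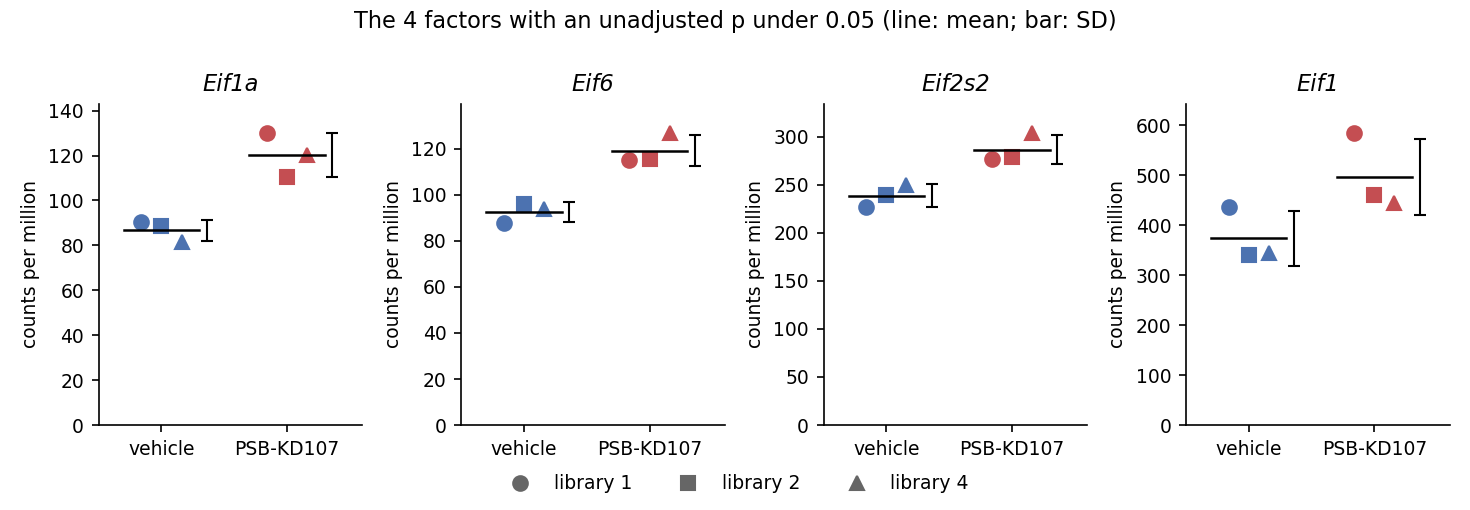
CPM in each library of Eif1a, Eif6, Eif2s2 and Eif1, with symbols for the library numbers 1, 2 and 4, the mean as a line and the SD as a bar (n = 3). In all 4 genes the lowest PSB-KD107 library lies above the highest vehicle library, by the smallest margin in Eif1 (445 against 437 CPM).

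The 3 subunits of eIF2 gave unlike values. Eif2s2 encodes the beta subunit, which contacts eIF5 and eIF2B, and lies on chr2:154871410-154892935 (mm10, minus strand). Its levels were 226, 240 and 250 CPM with vehicle and 276, 278 and 304 CPM with PSB-KD107. All treated libraries were above all vehicle libraries, and the means were 239 ± 11.9 and 286 ± 15.2 CPM (SD, n = 3). For Eif2s2 the log2 fold change was 0.26 (SE 0.092, 95% interval 0.038 to 0.49), with an adjusted p-value of 0.464 by edgeR and 0.155 by DESeq2. It lay between 0.22 and 0.30 with each library left out, but the unadjusted p-value of edgeR was then 0.0522 to 0.101, so that this member lost its p-value under 0.05 in all 6 of these fits. Without both libraries numbered 1 the log2 fold change was 0.24.

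Eif2s1 encodes the alpha subunit, the target of the eIF2 kinases. Its levels were 126, 121 and 128 CPM with vehicle and 136, 126 and 129 CPM with PSB-KD107, with overlap. The difference was 0.057 on the log2 scale (SE 0.081, 95% interval -0.14 to 0.25, adjusted p = 0.853 by edgeR). Eif2s3x encodes the gamma subunit, which binds GTP and the initiator tRNA, and is X-linked. Its levels were 79.4, 141 and 143 CPM with vehicle and 88.5, 141 and 119 CPM with PSB-KD107. Library 1 was the lowest of its group on both sides, and these are the libraries with little Xist. The X-linked genes Kdm6a and Kdm5c, chosen after their values were seen, were lowest in the same libraries. Kdm6a had 36.1 and 32.3 CPM (57.6 to 72.9 CPM elsewhere) and Kdm5c had 114 and 126 CPM (175 to 234 CPM elsewhere). The X-linked member Eif1ax was not low in both. It had 149 CPM in vehicle library 1, the highest of its group, and 128 CPM in PSB-KD107 library 1, the lowest. The part of these differences in the values of Eif2s3x was not tested. The log2 fold change of Eif2s3x was -0.058 with the largest SE of all members (0.28), and -0.13 with an SE of 0.12 without both libraries numbered 1.

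The 5 subunits of eIF2B, the exchange factor of eIF2, showed no member with an unadjusted p-value under 0.05. Eif2b4, the delta subunit, had 33.4, 37.1 and 36.6 CPM with vehicle and 39.4, 38.8 and 47.0 CPM with PSB-KD107. The groups did not overlap, and PSB-KD107 library 4 was the highest. On the log2 scale the difference was 0.22 (SE 0.12, 95% interval -0.061 to 0.51, adjusted p = 0.625 by edgeR), and 0.13 without PSB-KD107 library 4. The exons of Eif2b4 overlap those of Snx17 on the other strand, which had 102 to 115 CPM and a log2 fold change of -0.0046, and the counting of strand is not given in the sources used here.

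Eif2b5, the catalytic epsilon subunit, had 125, 112 and 107 CPM with vehicle and 132, 108 and 120 CPM with PSB-KD107. Eif2b3, the gamma subunit that pairs with it, had 32.4, 39.6 and 42.6 CPM with vehicle and 35.5, 37.7 and 32.7 CPM with PSB-KD107. The groups overlapped in both genes, with log2 fold changes of 0.063 (SE 0.11) and -0.11 (SE 0.14). The regulatory subunit Eif2b1 had 52.8, 47.5 and 50.9 CPM with vehicle and 56.0, 49.3 and 47.0 CPM with PSB-KD107. The regulatory subunit Eif2b2 had 86.8, 78.3 and 80.0 CPM with vehicle and 85.0, 80.5 and 84.3 CPM with PSB-KD107. Both had overlapping groups and log2 fold changes of 0.0098 (SE 0.11) and 0.028 (SE 0.085). The median log2 fold change was 0.057 over the 3 eIF2 subunits and 0.028 over the 5 eIF2B subunits. Eif2a and Eif2d can bring the initiator tRNA without eIF2. Eif2a had 69.8, 68.7 and 70.4 CPM with vehicle and 67.4, 67.4 and 69.3 CPM with PSB-KD107. Eif2d had 27.2, 22.9 and 22.2 CPM with vehicle and 27.5, 22.2 and 23.9 CPM with PSB-KD107. Both had overlapping groups, with log2 fold changes of -0.034 (SE 0.077) and 0.029 (SE 0.14).

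The 14 eIF3 genes had log2 fold changes from -0.11 to 0.16 with a median of -0.018, and none had an unadjusted p-value under 0.05 by edgeR. The smallest p-values were those of Eif3c, Eif3k, Eif3j1 and Eif3l. Eif3c, a core subunit, had 322, 383 and 393 CPM with vehicle and 397, 438 and 391 CPM with PSB-KD107, a log2 fold change of 0.16 (SE 0.12, adjusted p = 0.720 by edgeR). The groups overlapped because of PSB-KD107 library 4, without which the log2 fold change was 0.19 (SE 0.13). Eif3k, the smallest subunit, had 101, 102 and 106 CPM with vehicle and 94.4, 99.7 and 92.8 CPM with PSB-KD107. It was the only member whose treated libraries all lay below the vehicle libraries, by a log2 fold change of -0.11 (SE 0.079, 95% interval -0.30 to 0.086, adjusted p = 0.722 by edgeR). Eif3l, which binds Eif3k, had 161, 173 and 171 CPM with vehicle and 157, 157 and 163 CPM with PSB-KD107, with overlap in library 1 of the vehicle group and a log2 fold change of -0.084 (SE 0.080).

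Eif3j1, a loosely bound subunit, had 99.4, 97.8 and 94.3 CPM with vehicle and 106, 101 and 105 CPM with PSB-KD107, without overlap. Its log2 fold change was 0.099 (SE 0.077, adjusted p = 0.734 by edgeR), and its exons overlap those of Spg11 on the other strand. Spg11 itself had a log2 fold change of 0.34 (SE 0.15). Eif3d, which can bind the cap of some mRNAs, also had groups that did not overlap, but at a log2 fold change of 0.053 (SE 0.079). Its levels were 186, 195 and 196 CPM with vehicle and 204, 197 and 197 CPM with PSB-KD107. Eif3j2, a copy of Eif3j1, was the least abundant, with 2.50, 2.78 and 2.57 CPM with vehicle and 2.86, 2.50 and 2.97 CPM with PSB-KD107. Eif3a, the largest subunit, had 612, 801 and 864 CPM with vehicle and 717, 847 and 703 CPM with PSB-KD107, with vehicle library 1 the lowest. The log2 fold change of Eif3a was -0.0068 (SE 0.16), and -0.11 (SE 0.15) without both libraries numbered 1. The 7 remaining genes, Eif3b, Eif3e, Eif3f, Eif3g, Eif3h, Eif3i and Eif3m, had log2 fold changes between -0.072 and 0.039 and adjusted p-values of at least 0.874 by edgeR.

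The 11 eIF4 genes tested had log2 fold changes from -0.15 to 0.18 with a median of -0.010, and none had an unadjusted p-value under 0.05 by edgeR. The spread between the PSB-KD107 libraries was wider here than between the vehicle libraries, with a median SD of the log2 level of 0.17 against 0.068. In eIF3 these were 0.079 and 0.077, and over all 46 members tested 0.12 and 0.079. The treated spread was also the wider one in eIF2B (0.13 against 0.082) and in the scanning factors (0.17 against 0.13). Eif4a1, the helicase of the complex, had 427, 411 and 431 CPM with vehicle and 560, 474 and 403 CPM with PSB-KD107. PSB-KD107 libraries 1 and 2 were above all vehicle libraries and library 4 was below them. The log2 fold change of Eif4a1 was 0.18 (SE 0.14, adjusted p = 0.732 by edgeR), 0.29 without PSB-KD107 library 4 and 0.037 without PSB-KD107 library 1.

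Eif4a2, the paralog of Eif4a1 with a coding sequence 79.6% identical, had PSB-KD107 library 4 on the other side of the vehicle libraries. Its levels were 434, 411 and 395 CPM with vehicle and 360, 331 and 521 CPM with PSB-KD107. PSB-KD107 libraries 1 and 2 were below all vehicle libraries, and library 4, the library with the high interferon-stimulated genes, was above them. The log2 fold change of Eif4a2 was -0.031 (SE 0.19) with all libraries and -0.26 (SE 0.097) without PSB-KD107 library 4, where its unadjusted p-value was 0.0453 and its adjusted p-value 0.460 by edgeR. The ratio of Eif4a1 to Eif4a2 counts was 0.99, 1.00 and 1.09 in vehicle libraries and 1.56, 1.43 and 0.77 in PSB-KD107 libraries (exact permutation test p = 0.4). Eif4b, which stimulates the helicase, was highest in the same library, with 374, 323 and 321 CPM with vehicle and 340, 304 and 448 CPM with PSB-KD107, and the log2 fold change was 0.10 (SE 0.17) and turned to -0.077 without PSB-KD107 library 4. The part of the interferon-stimulated genes in these values was not tested.

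Eif4e, the cap-binding protein, had 114, 109 and 115 CPM with vehicle and 123, 112 and 121 CPM with PSB-KD107, with overlap and a log2 fold change of 0.073 (SE 0.082, adjusted p = 0.811 by edgeR). Eif4e3, a less abundant relative, had 19.6, 18.8 and 19.5 CPM with vehicle and 20.7, 19.5 and 11.9 CPM with PSB-KD107. Only PSB-KD107 library 4 was low, and the log2 fold change was -0.15 (SE 0.23) with this library and 0.057 (SE 0.10) without it. Eif4g3, a scaffold protein, had 222, 220 and 238 CPM with vehicle and 210, 231 and 195 CPM with PSB-KD107, and a log2 fold change of -0.097 (SE 0.0997). Eif4g2, a scaffold relative that does not bind eIF4E and the member with the most counts, had 1898, 2087 and 2246 CPM with vehicle and 2017, 2184 and 2261 CPM with PSB-KD107, and a log2 fold change of 0.053 (SE 0.13). Eif4b, Eif4e2, Eif4enif1, Eif4g1 and Eif4h had log2 fold changes between -0.087 and 0.10 and adjusted p-values of at least 0.879 by edgeR.

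**Figure D3:**
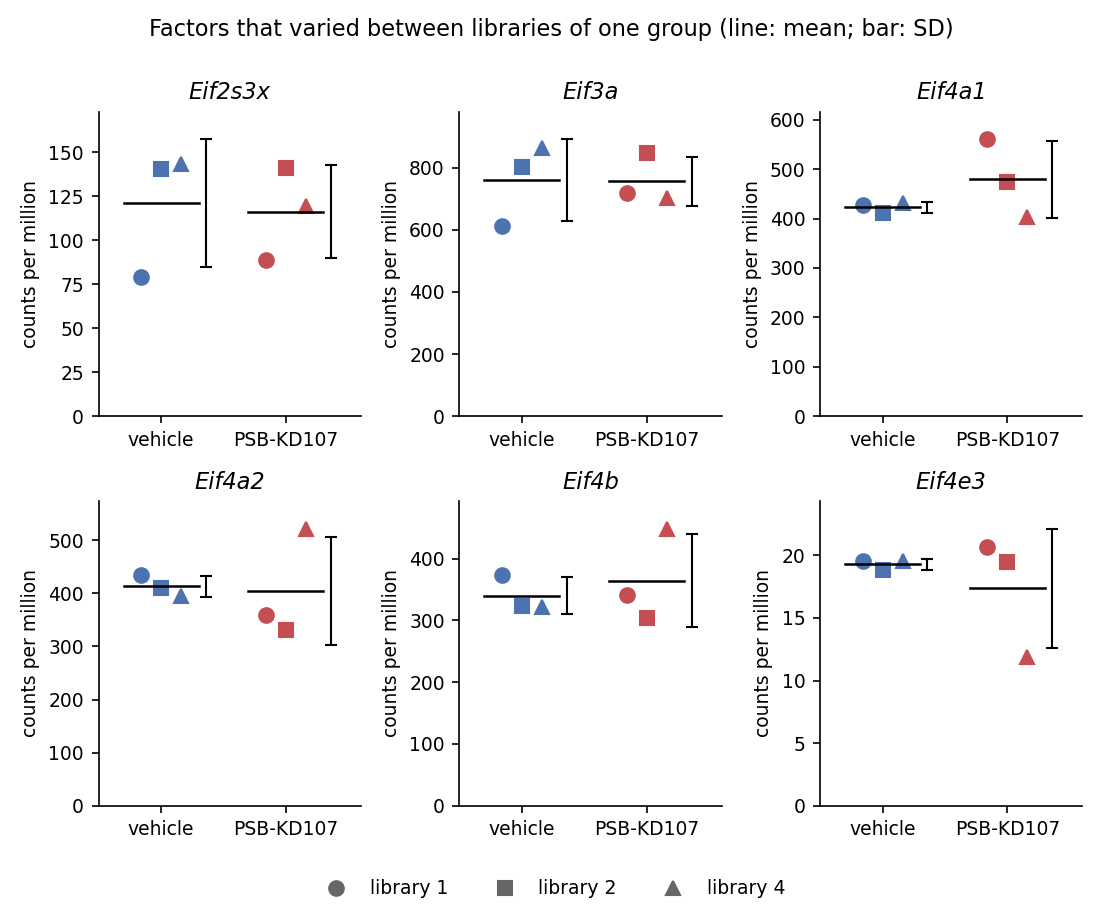
CPM in each library of 6 factors that varied between libraries of a group, with symbols for the library numbers 1, 2 and 4, the mean as a line and the SD as a bar (n = 3). Eif2s3x and Eif3a are low in vehicle library 1, and PSB-KD107 library 4 is the highest library for Eif4a2 (521 CPM) and Eif4b (448 CPM) and the lowest for Eif4a1 (403 CPM) and Eif4e3 (11.9 CPM).

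Eif4a3, the relative of eIF4A that belongs to the exon junction complex, had 113, 127 and 134 CPM with vehicle and 97.0, 105 and 119 CPM with PSB-KD107. The groups overlapped, since PSB-KD107 library 4 was above vehicle library 1. The difference was -0.22 on the log2 scale (SE 0.12, 95% interval -0.50 to 0.062, adjusted p = 0.625 by edgeR), the lowest of all members, and without PSB-KD107 library 4 it was -0.30.

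Among the factors of subunit joining and later steps, Eif6 had the second smallest p-value of the members. Eif6 keeps the large subunit from joining too early and takes part in its maturation. It lies on chr2:155819832-155826925 (mm10, minus strand). Its levels were 87.6, 96.1 and 93.8 CPM with vehicle and 115.0, 115.7 and 126.9 CPM with PSB-KD107. The groups did not overlap, and the means were 92.5 ± 4.40 and 119.2 ± 6.67 CPM (SD, n = 3). For Eif6 the log2 fold change was 0.37 (SE 0.088, 95% interval 0.15 to 0.58, a 1.29-fold difference), with an adjusted p-value of 0.285 by edgeR and 0.0136 by DESeq2. With each library left out it was between 0.32 and 0.38, and without both libraries numbered 1 it was 0.35. With edgeR, Eif1a and Eif6 were the members that had an unadjusted p-value under 0.05 in all 6 of the fits that left out a library.

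Eif5, which makes eIF2 hydrolyse its GTP at the start codon, had 391, 420 and 462 CPM with vehicle and 537, 491 and 427 CPM with PSB-KD107. PSB-KD107 library 4 was within the vehicle range. For Eif5 the log2 fold change was 0.19 (SE 0.13, adjusted p = 0.687 by edgeR), and 0.050 without both libraries numbered 1. Eif5a, which acts in elongation and carries the amino acid hypusine, had 456, 444 and 465 CPM with vehicle and 453, 431 and 443 CPM with PSB-KD107, and the log2 fold change was -0.041 with a narrow interval (-0.25 to 0.17). Eif5a2, its scarce paralog with a coding sequence 75.2% identical, had 7.42, 5.53 and 4.81 CPM with vehicle and 9.72, 6.96 and 6.96 CPM with PSB-KD107. The groups overlapped, and the log2 fold change of 0.41 (SE 0.25, 95% interval -0.20 to 1.03, adjusted p = 0.675 by edgeR) was the least certain of the larger values. Eif5b, the GTPase that joins the subunits, had a log2 fold change of -0.059 (SE 0.14).

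Levels of different genes were compared per length, as CPM per kilobase of the principal transcript in GENCODE M21. In eIF2, the level of Eif2s2 in vehicle libraries was 93.9 ± 4.67, above Eif2s1 (36.7 ± 1.15) and Eif2s3x (33.2 ± 9.90), of which the last pair overlapped (SD, n = 3). In eIF2B the order was Eif2b2 (50.9 ± 2.80), Eif2b5 (44.9 ± 3.70), Eif2b1 (25.04 ± 1.33), Eif2b3 (24.6 ± 3.36) and Eif2b4 (17.6 ± 0.994), in which Eif2b1 and Eif2b3 differed by less than their SD. The median over the 14 eIF3 genes was 104 CPM per kilobase. Eif3a was the highest of them (148 ± 25.6), with SDs that overlapped those of Eif3h (140 ± 9.93), and Eif3j1 (18.0 ± 0.484) and Eif3j2 (1.1003 ± 0.0605) were far below the rest. In eIF4, Eif4g2 (260 ± 21.8) and Eif4a1 (238 ± 6.15) were the highest and Eif4e3 (7.67 ± 0.173) the lowest. Among the scanning factors, Eif1 (283 ± 41.8) was the highest and Eif1ad (14.6 ± 1.36) the lowest. Among the later factors, Eif5a (317 ± 7.17) was the highest and Eif5a2 (1.18 ± 0.269) the lowest. With PSB-KD107 the order was the same in eIF2, eIF2B and both groups of single factors, while 8 of the 14 eIF3 genes and 9 of the 11 eIF4 genes kept their rank. The order depends on the length used: with the total length of all exons, 1 of 3 eIF2 genes, 1 of 5 eIF2B genes, 2 of 14 eIF3 genes and 6 of 11 eIF4 genes had the same rank.

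**Figure D4:**
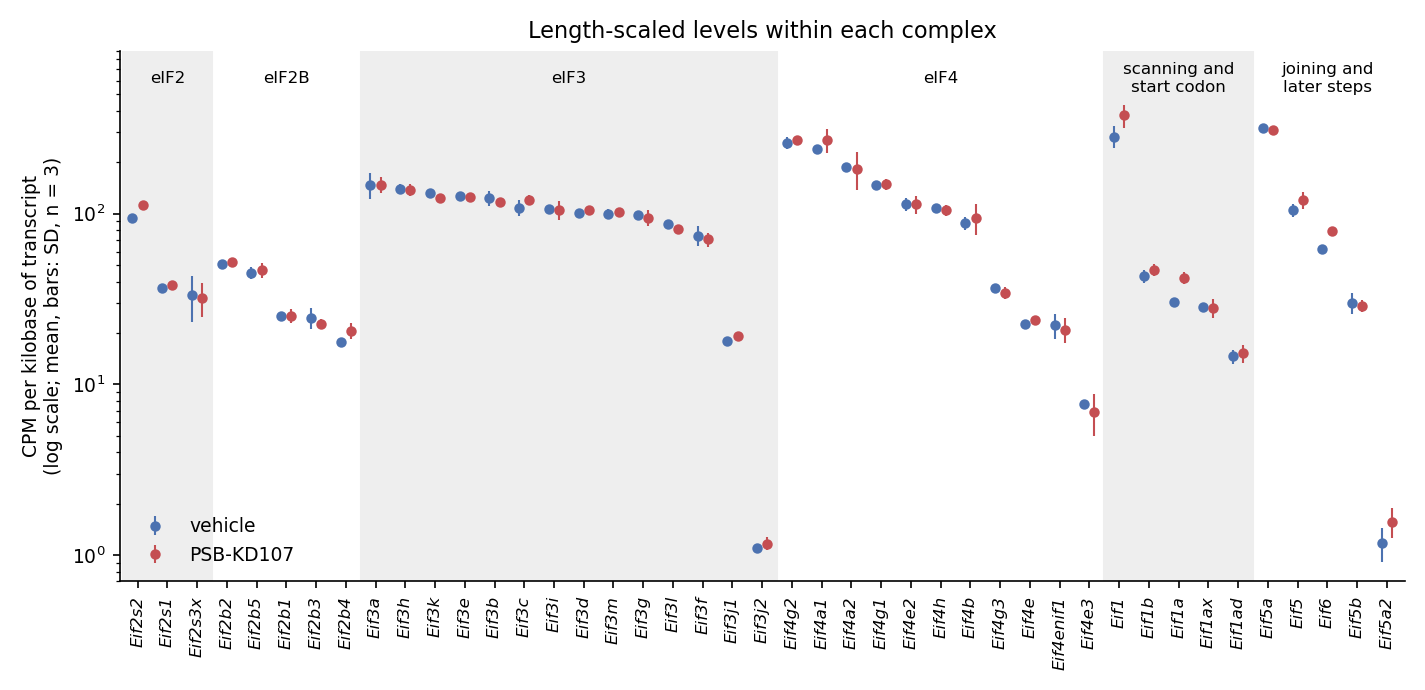
Mean CPM per kilobase of the principal transcript (log scale) of each detected factor in 6 groups, with vehicle in blue, PSB-KD107 in red and the SD as bars (n = 3). The levels of 12 of the 14 eIF3 genes lie between 74.4 and 148 CPM per kilobase in vehicle libraries, whereas the eIF4 genes spread from 7.67 to 260.

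The genes that regulate initiation were examined next. Over the 22 regulators tested the median absolute log2 fold change was 0.15, beside 0.065 for the initiation factors and 0.20 for all genes. The median SE was 0.17 for the regulators and 0.11 for the initiation factors. By edgeR, an unadjusted p-value under 0.05 was reached by 2 regulators that were higher (9.09%, against 6.47% of all genes) and 2 that were lower (9.09%, against 2.93%), and none passed adjustment. DESeq2 called 1 regulator, Eif4ebp1, as higher, against 2.58% of all genes. Eif4ebp1, which holds eIF4E and releases it when mTOR is active, had 53.4, 70.0 and 65.3 CPM with vehicle and 95.05, 109 and 102 CPM with PSB-KD107. The groups did not overlap, and the adjusted p-value was 0.206 by edgeR and 0.000548 by DESeq2. The ratio of Eif4ebp1 to Eif4e counts was 0.47 to 0.64 in vehicle libraries and 0.78 to 0.97 in PSB-KD107 libraries. This ratio was chosen after the values were seen, and with Eif4e at a log2 fold change of 0.073 it mainly restates the Eif4ebp1 difference. Eif4ebp2, with the same function, had a log2 fold change of -0.029 (SE 0.094). Mknk2, a kinase of eIF4E, had 238, 175 and 145 CPM with vehicle and 328, 236 and 291 CPM with PSB-KD107, with overlap and a log2 fold change of 0.62 (SE 0.22, adjusted p = 0.463 by edgeR).

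Pdcd4, an inhibitor of eIF4A, had 73.6, 56.0 and 51.6 CPM with vehicle and 45.5, 39.6 and 24.6 CPM with PSB-KD107. All treated libraries were below all vehicle libraries, with a log2 fold change of -0.72 (SE 0.26, adjusted p = 0.467 by edgeR). The eIF2 kinase gene Eif2ak1 had 88.4, 107 and 121 CPM with vehicle and 82.4, 87.6 and 73.9 CPM with PSB-KD107. The groups did not overlap, and the log2 fold change was -0.37 (SE 0.14, adjusted p = 0.491 by edgeR). Eif2ak2, the eIF2 kinase that double-stranded RNA activates and an interferon-stimulated gene, had 13.4, 11.3 and 12.2 CPM with vehicle and 15.6, 12.6 and 153 CPM with PSB-KD107, and the log2 fold change was 2.29 (SE 1.00) with all libraries and 0.20 (SE 0.16) without PSB-KD107 library 4.

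Of the 10 elongation and termination genes tested, 1 was higher with an unadjusted p-value under 0.05 by edgeR (10%, against 6.47% of all genes), namely Eef2k, the kinase that inhibits elongation factor eEF2. It had 17.9, 13.9 and 13.2 CPM with vehicle and 27.1, 21.5 and 18.1 CPM with PSB-KD107. The groups were separated by a small margin, and the log2 fold change was 0.57 (SE 0.21, adjusted p = 0.479 by edgeR). The median log2 fold change of the 10 genes was -0.029. The mitochondrial initiation factor genes Mtif2 and Mtif3 had log2 fold changes of 0.18 (SE 0.11) and 0.19 (SE 0.20), with no unadjusted p-value under 0.05.

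**Figure D5:**
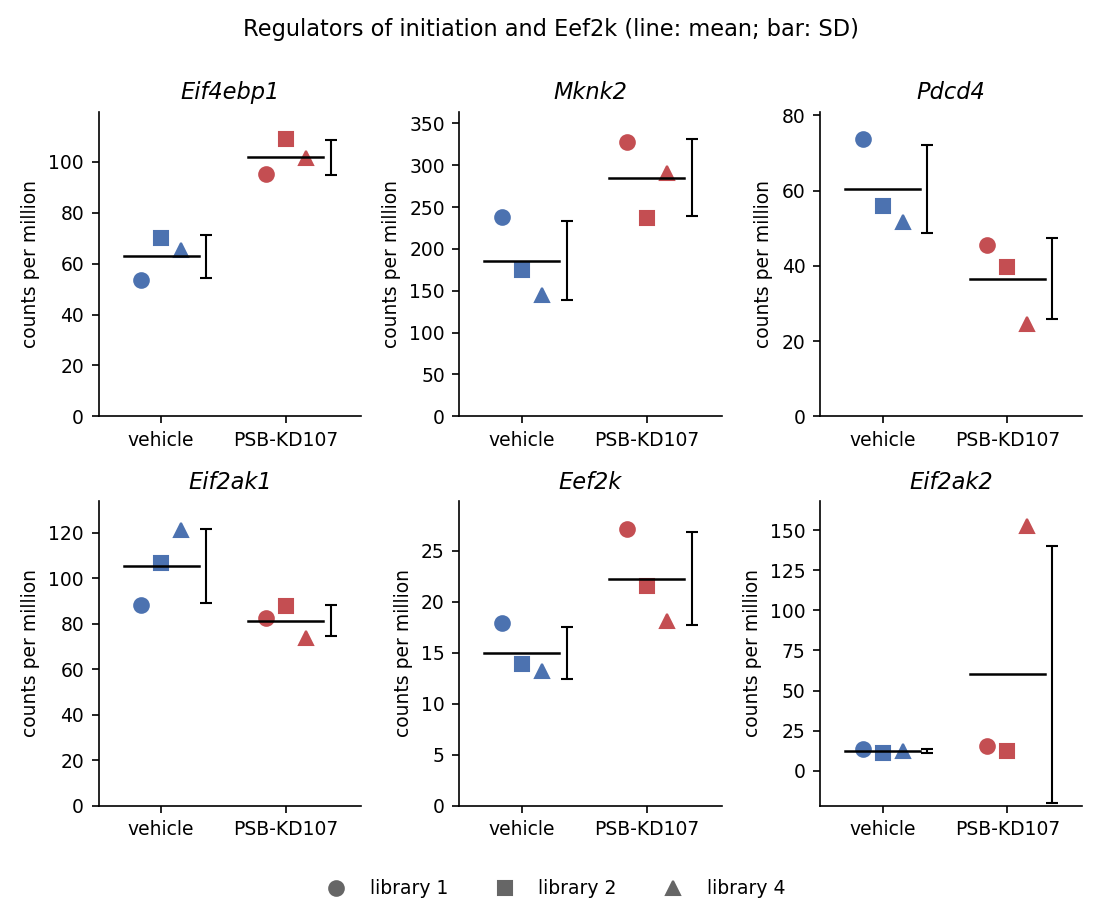
CPM in each library of 5 genes of initiation and elongation control with an unadjusted p-value under 0.05, and of Eif2ak2, with symbols for the library numbers 1, 2 and 4, the mean as a line and the SD as a bar (n = 3). The high mean of Eif2ak2 in the PSB-KD107 group comes from library 4 at 153 CPM, and its SD bar extends below 0.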

How the data were processed

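Poly(A) RNA of the 6 libraries was sequenced as 100-base pairs. Per the labels and methods, the authors aligned reads to mm10 with STAR and deposited raw counts per gene. The counting program, its annotation and its use of strand are not given in the sources used here, so overlapping genes and pseudogene copies may share counts. The table's libraries 1 and 2 match sample records, and libraries 4 were assigned to their group only. Members, complexes and lists were chosen with earlier results of these data known.

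Counts were filtered with filterByExpr, scaled by TMM and tested with edgeR 4.0.16 (quasi-likelihood, R 4.3.3), with Benjamini-Hochberg adjustment over 14165 genes and a threshold of 0.05. The p-values measure the spread between these libraries. DESeq2 1.42.0 and limma 3.58.1 served as alternatives. Fits were tested on simulated data. CPM are TMM-scaled, log ratios used an offset of 0.1 CPM, and coordinates and lengths came from GENCODE M21 (GRCm38, complete transcripts first). Total counts of 30917613 to 48756794 set the precision. Alternatives were RLE factors, no filter, a mean FPKM of at least 1, limma-voom, DESeq2, the replicate number as a block, and each library left out.

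CPM in every library are given for all eIF2 and eIF2B subunits, the 4 eIF3 and 4 eIF4 members with the smallest p-values, members with an unadjusted p-value under 0.05, and the highest and lowest per-length level of a complex. Paralogs of these were compared. Eif1ax, Eif3d, Eif4b, Eif5, Eif2ak2, Eif4ebp2 and the ratios of Eif4ebp1 to Eif4e and of Eif1a to Eif1ax were added after their values were seen. The same holds for Xist, Kdm6a, Kdm5c, Ddx3y, Uty, Eif2s3y, Isg15, Snx17, Spg11, Atf4, Trib3 and the pseudogenes Eif4a-ps4 and Eif5al3-ps.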

Additional observations from a re-analysis of the deposited data

How the results depend on the processing

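With RLE factors, no filter, the FPKM filter and limma-voom, edgeR or limma called 0 members, beside at most 0.0331% of all genes. In these fits 3 or 4 members were higher at an unadjusted p-value under 0.05, beside 4.47% to 7.01% of all genes. With DESeq2, 2 members were called, beside 3.4% of all genes, and 0 to 2 with each library left out, beside 1.26% to 5.63% of all genes. With each library left out, edgeR called 0 members and 0% of all genes. An unadjusted p-value under 0.05 was then reached by 2 to 4 members with a higher level, beside 3.31% to 7.35% of all genes. It was reached by 0 to 2 members with a lower level, beside 1.33% to 4.89% of all genes. The 2 lower ones (Eif4a2 and Eif4a3) came without PSB-KD107 library 4, beside 3.65% of all genes. The libraries numbered 1 and 2 alone, chosen after seeing the data, gave 2 higher members, beside 4.25% of all genes. The medians were then 0.023 for eIF3 and 0.036 for eIF4. The median of eIF4 ranged from -0.043 to 0.030 with each library left out. The effect of depth was not tested, and the least abundant members tested, Eif3j2 and Eif5a2, had SEs of 0.22 and 0.25.

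The library numbers were not taken as pairs, since neither source says which library came from which mouse. The libraries numbered 1 shared low Xist (6.45 and 7.41 CPM, against 276 to 437 CPM elsewhere). They also shared low Myf5 (3.57 and 4.23 CPM, against 18.6 to 40.9 CPM elsewhere). Whether these libraries came from the same mouse was not tested. Deviations from the group means correlated at 0.63 for number 1, 0.52 for number 2 and -0.13 for number 4. Vehicle library 4 correlated best with PSB-KD107 library 2 (0.64). The deviations of the 3 libraries of a group sum to 0, so these correlations depend on each other and cannot decide whether the numbers mark pairs. With the replicate block on libraries 1 and 2, edgeR called 9 of the 46 members, beside 17.1% of all genes. They were Eif1, Eif1a, Eif2s2, Eif3c, Eif4a1, Eif4a2, Eif4a3, Eif5 and Eif6. An unadjusted p-value under 0.05 was reached by 9 members with a higher level (beside 15.5% of all genes) and 3 with a lower level (beside 15.1% of all genes). The medians were 0.027 for eIF3 and 0.037 for eIF4. This fit left out the libraries numbered 4 and held few libraries for the terms of its model. The same libraries without the block gave 0 called members and 0% of all genes. With the replicate block on all 6 libraries, edgeR called 0 members and 0% of all genes. At an unadjusted p-value under 0.05, Eif1, Eif1a, Eif2s2 and Eif6 were higher (beside 7.3% of all genes) and Eif4a3 was lower (beside 4.89%). With this block DESeq2 called Eif1 and Eif1a (4.35% of the members, beside 4.47% of all genes).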

Other observations

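Of the 15 symbols starting with Eif1 to Eif6 that the rule left out, the Y-linked Eif2s3y had at most 3 counts in a library. The Y-linked genes Ddx3y and Uty were also at or near 0 in all 6 libraries. Xist, in contrast, was at 276 to 437 CPM in the libraries numbered 2 and 4 and at 6.45 and 7.41 CPM in those numbered 1. The methods of the study describe male mdx mice, without a separate statement on the mice that gave these cells. The sex of the cells was not tested. The pseudogene Eif4a-ps4 had 115 to 244 counts in a library, with a log2 fold change of 0.14 (standard error, SE, 0.21). The pseudogene Eif5al3-ps had 3 to 21 counts.

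Among genes that act after eIF2, chosen after their values were seen, Atf4, a transcription factor whose translation increases when eIF2 is phosphorylated, had 218, 242 and 254 CPM in vehicle libraries 1, 2 and 4 and 451, 427 and 276 CPM in PSB-KD107 libraries 1, 2 and 4. The groups did not overlap, and the log2 fold change was 0.69 (SE 0.20, adjusted p = 0.379 by edgeR and 0.0617 by DESeq2). Without PSB-KD107 library 4, the lowest of its group, the log2 fold change of Atf4 was 0.88 (SE 0.10, adjusted p = 0.115 by edgeR and 2.66e-10 by DESeq2), and without both libraries numbered 1 it was 0.50 (SE 0.23). Trib3, a target gene of ATF4, had 4.44, 2.49 and 2.57 CPM with vehicle and 56.4, 36.6 and 34.8 CPM with PSB-KD107, a log2 fold change of 3.75 (SE 0.34, adjusted p = 0.0738 by edgeR and 2.2e-24 by DESeq2). No measurement of eIF2 phosphorylation or of protein synthesis was analysed here.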
